A study of Mus musculus with 6 samples.

Results

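RNA helicases of the DEAD-box and DEAH-box families use ATP to unwind or remodel RNA and take part in splicing, translation, mRNA storage and decay. The 8 helicase genes described here were chosen by name out of 21951 annotated protein-coding genes. They are D1Pas1, a testis-expressed retrogene of Ddx3x, its parent Ddx3x, the paralogous pair Ddx5 and Ddx17, the translational repressor Ddx6, the nucleolar helicase Ddx21, and the DEAH-box helicases Dhx9 and Dhx36. Their members in the data were the RISC-IP peaks that overlapped an exon of these genes by at least 1 bp (GENCODE M21 on mm10, GRCm38). Of 107307 peaks in 5 libraries, 170 met this rule, and they merged into 58 of the 38946 exonic intervals.

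RISC-IP isolates RNA held by Ago2, the protein of the RNA-induced silencing complex that carries the miRNA. The cells were primary mouse satellite cells (MSC), the stem cells of skeletal muscle, kept for 30 h in differentiation medium (DM), transfected with an RNA duplex at 10 nM according to the labels, and held in DM for a further 16 h. The duplex was siGFP in the 4 control-IPs and miR-222 in the 2 miR-222-IPs, and all cells had passed through the same transfection. The methods and the labels state different duplex concentrations, and strain, age and donor animals are not given in the sources used here. Libraries are named here by group and replicate number. Control-IP 1, control-IP 2 and miR-222-IP 1 made up the first experiment, and control-IP 3, control-IP 4 and miR-222-IP 2 the second. With a single miR-222-IP in each experiment, a difference within an experiment has no replicate check, and whether libraries of 1 experiment came from separate cultures is not stated. The labels call the source myotubes and the treated cells myocytes, and 1 sample title spells the duplex miR22 where its condition label reads miR222.

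Each library had its own peak list, with a −log10 p for each peak and a threshold of 20. The lists held 10579 to 37762 peaks, fewest in control-IP 1 and most in miR-222-IP 2, except for control-IP 3. That list held 3619 peaks with a median width of 32103 bp on 10 chromosomes and is given apart. A −log10 p grows with enrichment and with depth, and read depth was not used here, so no counting error can be attached to it. An amount of Ago2-bound RNA also follows the amount of the RNA in the cells and the number of cells that contain it, and these cannot be told apart in bulk samples. Of 8 muscle markers, 6 had an exonic peak in all 5 libraries (Myog in miR-222-IP 2 alone, Ckm in 3 libraries), with summed highest −log10 p of 250 to 384 in 4 libraries and 1113 in miR-222-IP 2. Of 7 markers of other cells, Cd68 and Pecam1 had a peak in all 5 libraries and Ptprc in 4, Pdgfra and Cdh5 in 1 each, and Col1a1 and Dcn in none. Their summed highest −log10 p was lowest at 165 in control-IP 1 and highest at 321 in control-IP 4. The part of these cells in the helicase peaks was not tested.

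Exonic peaks were found for 7 of the 8 helicases, and 6 had a peak in all 5 libraries (Ddx3x, Ddx5, Ddx17, Ddx6, Ddx21 and Dhx9). Among annotated protein-coding genes, 46.9% had an exonic peak in at least 1 of these libraries and 19.0% in all 5. Among the protein-coding genes with any exonic peak, 40.4% had a peak in all 5. Dhx36 had a peak in 3 libraries. D1Pas1 had none in any of the 5, so no enrichment passed the threshold there, whether or not its RNA was present. The paper lists D1Pas1 among its miR-222 targets, with enrichment by quantitative PCR in new RISC-IPs, and those data were not used here.

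**Figure D1:**
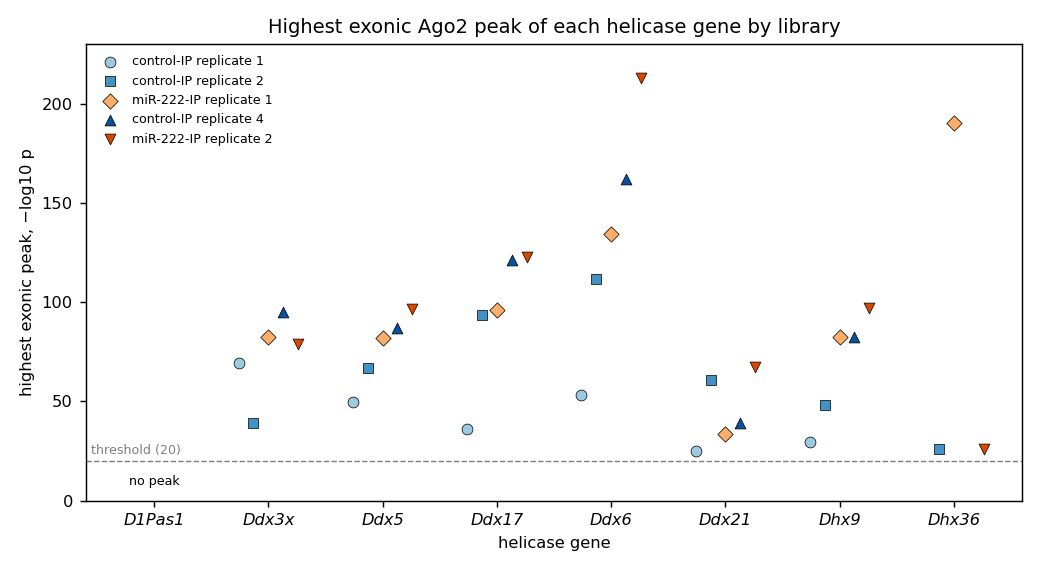
Highest exonic −log10 p (vertical axis) of each helicase gene (horizontal axis), with a point for each of 5 libraries and a dashed line at the threshold of 20. Control-IP 1 is lowest for 5 of the 6 genes with a peak in every library, D1Pas1 has no point, and Dhx36 has its point at 190 in miR-222-IP 1 far from its other points near 26.

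The order of the genes by highest exonic −log10 p (mean ± SD of 5 libraries of both conditions) began with Ddx6 at 135 ± 59.2 and Ddx17 at 93.8 ± 35.1. Ddx5 at 76.4 ± 18.3, Ddx3x at 73.0 ± 20.9 and Dhx9 at 67.9 ± 27.9 followed, and Ddx21 was lowest at 45.2 ± 18.1. Ddx6 was above Ddx17 in 5 of 5 libraries, by 41.0 ± 29.6, and this was the single pair of neighbours in that order with the same direction in every library. Ddx17 was above Ddx5 in 4 of 5 libraries (17.5 ± 18.9), and Dhx9 above Ddx21 in 4 of 5 (22.8 ± 26.1). Ddx5 was above Ddx3x in 2 of 5 (3.33 ± 19.0) and Ddx3x above Dhx9 in 3 of 5 (5.09 ± 22.4). All 4 of these differences were smaller than their spread over libraries. For comparison, the median of this mean was 72.7 over all protein-coding genes with a peak in every library.

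Together the 8 genes had 14, 33 and 29 exonic peaks in control-IP 1, 2 and 4, and 41 and 53 in miR-222-IP 1 and 2. From fewest to most, the libraries stood in the same order as by the length of their lists, and the part of depth in these counts was not tested. The share of the mRNA under peaks was widest in range for Ddx21, from 3.26% in control-IP 1 to 73.7% in miR-222-IP 2. For Ddx5 it was 45.7% in control-IP 1 and 53.0% to 72.6% in the other 4 libraries, and for Ddx17 it was 26.9% and 38.5% to 43.4%.

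**Figure D2:**
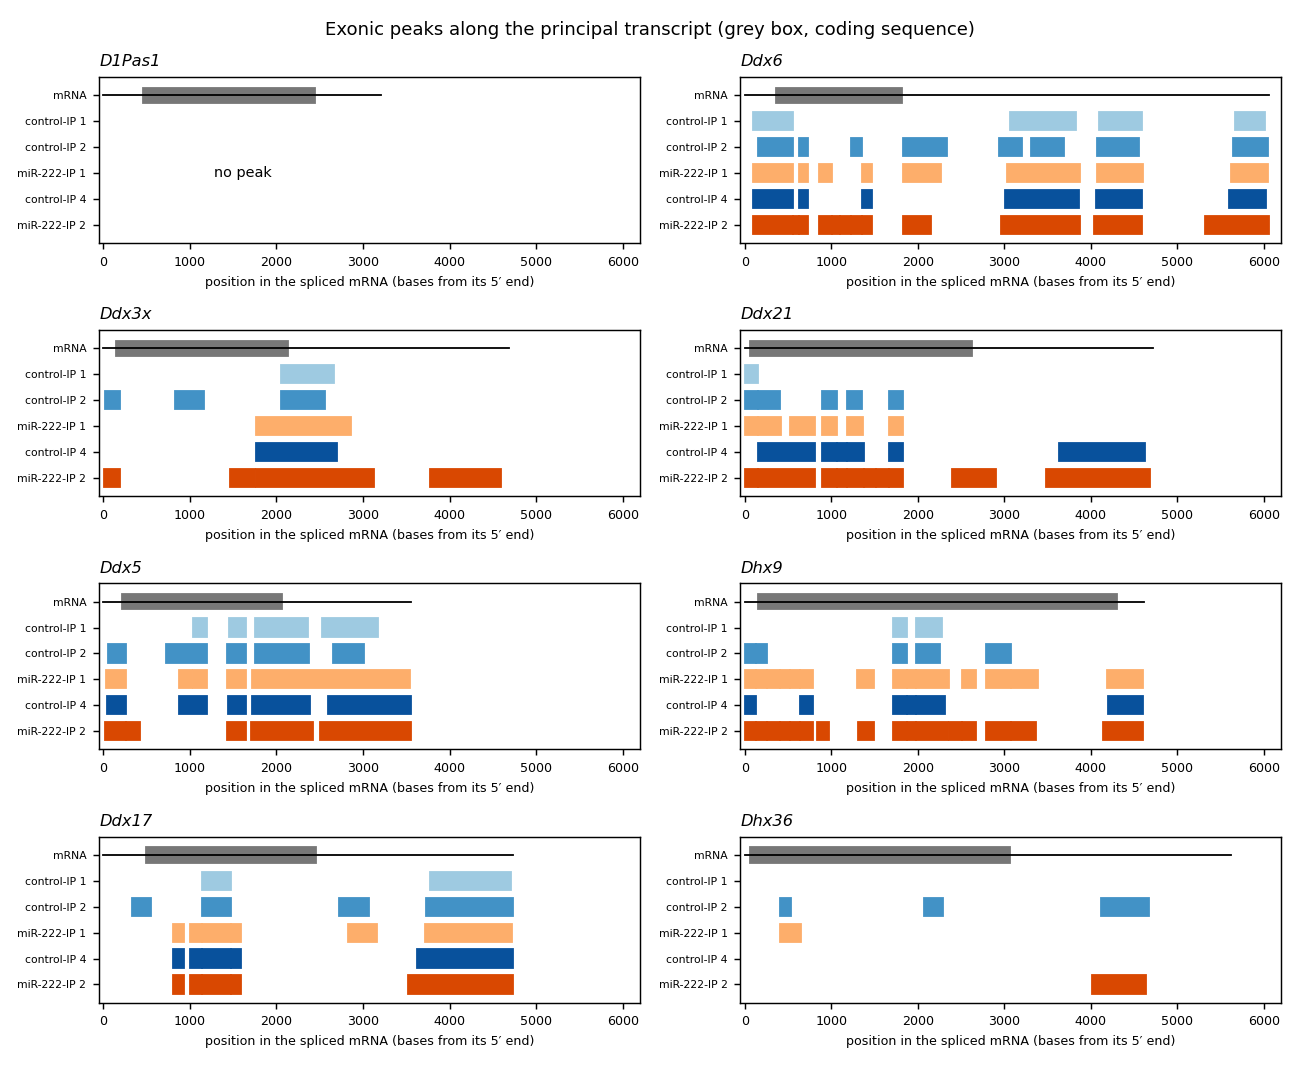
Exonic peaks (coloured boxes, a row for each library) along the spliced principal transcript of each gene, with the position in bases from its 5′ end on the horizontal axis and the coding sequence as a grey box. Peaks of Ddx6 return in every library at the start of the coding sequence and at 3 places of the 3′UTR, those of Dhx9 spread over the coding sequence in the miR-222-IPs, and D1Pas1 has none.

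D1Pas1 and Ddx3x encode closely related DEAD-box proteins that unwind RNA during translation initiation. D1Pas1 is a single exon of 3212 bases at chr1:186967416-186970627 on the plus strand, as retrogenes copied from spliced mRNA are. Ddx3x has 17 exons at chrX:13280970-13294052 on the plus strand and an mRNA of 4692 bases. Their coding sequences were 87.4% identical over 1980 aligned bases, and the longest run without a difference was 44 bases. The Y-linked paralog Ddx3y was 84.6% identical to Ddx3x and 80.8% to D1Pas1 in its coding sequence.

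Reads from a stretch with identical copies elsewhere cannot be placed uniquely, and each mRNA was therefore cut into windows of 100 bases, the length of a sequenced read, and searched in the whole genome. None of the 3113 windows of D1Pas1 occurred anywhere else, and none of its 3163 windows of 50 bases. Ddx17, Ddx21, Dhx9 and Dhx36 also had no repeated window of either length. For Ddx3x, 3.88% of windows of 100 bases were found elsewhere, at Gm44429, and 14.1% of windows of 50 bases, at Gm44429, Gm19028 and Ddx3y. Ddx6 had 4.07% and 18.3% (Gm13410), and Ddx5 had the highest shares, 9.77% and 27.5% (Gm12183 and, for the shorter windows, Gm32526). How reads with several equal placements were treated is not given in the sources used here, so levels of Ddx3x, Ddx5 and Ddx6 are uncertain over those stretches.

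**Figure D3:**
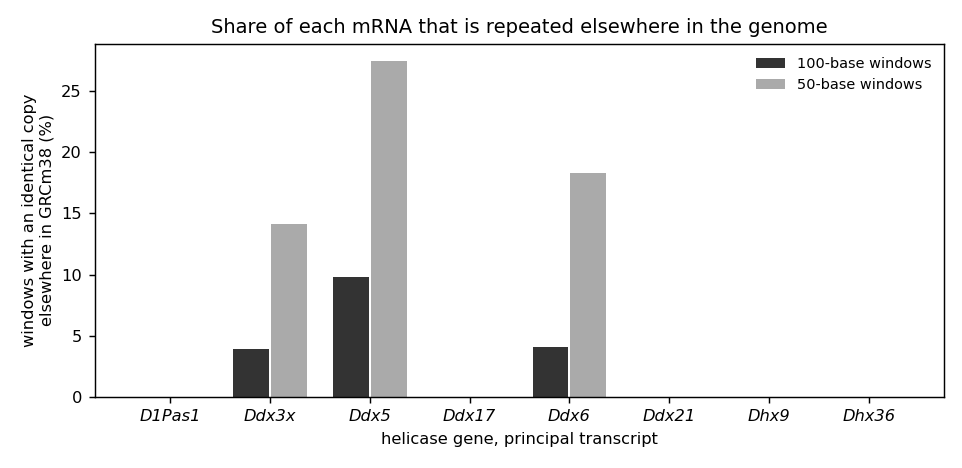
Share of windows of each mRNA (vertical axis, percent) that occur without a difference at another place of GRCm38, for windows of 100 and 50 bases, by helicase gene. Bars stand for Ddx3x, Ddx5 and Ddx6, and the other 5 genes, D1Pas1 among them, are at 0.

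Ddx3x peaked where its coding sequence ends and its 3′UTR begins, in an interval over exons 15 to 17 at chrX:13290872-13292489. The −log10 p there was 69.4 and 39.4 in control-IP 1 and 2, and 82.4 in miR-222-IP 1. In the second experiment it was 95.0 in control-IP 4 and 78.9 in miR-222-IP 2. Of the windows of 100 bases in this interval, 9 of 1272 had a copy elsewhere, and of those of 50 bases 77 of 1322. The other 4 intervals of Ddx3x were seen in 1 or 2 libraries with −log10 p of 21.1 to 35.0. They lay at the start codon (33.1 in control-IP 2 and 35.0 in miR-222-IP 2), in the coding sequence and near the end of the 3′UTR. Ddx3y had a peak in control-IP 2 (26.1) and in miR-222-IP 2 (27.7) and in none of the other 3 libraries.

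The list of control-IP 3 did hold a peak over D1Pas1. It spanned chr1:186960879-186969816, was 8938 bp wide with −log10 p of 37.6, and overlapped exons of 3 genes, of which 1 was protein-coding. It covered 74.8% of the D1Pas1 mRNA. Peaks of the same list spanned Ddx5 (172794 bp, −log10 p 81.5), Ddx17 (45513 bp, 108), Ddx21 (120595 bp, 135) and Dhx9 (118159 bp, 233) with neighbouring genes, and no value of 1 gene can be read from them. Ddx3x, Ddx6 and Dhx36 lie on chromosomes outside that list.

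Since miR-222 was the transfected miRNA, sites of 7 bases that pair with its seed were searched in the 8 mRNAs on the coding strand. The seed (bases 2 to 8) is in capitals in these mature miRNAs (RefSeq, GRCm38.p6), which are shown because their sites were counted. miR-206 is a muscle miRNA and let-7a is found in most tissues.
miR-222-3p: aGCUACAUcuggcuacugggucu
miR-206-3p: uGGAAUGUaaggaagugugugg
let-7a-5p: uGAGGUAGuagguuguauaguu
The miR-222 site, ATGTAGC, occurred 3 times, in the 3′UTRs of D1Pas1 and Dhx36 and in the coding sequence of Ddx17, and none of the 3 lay under a peak of the 5 libraries. The stretches are shown with the site in capitals because they hold the miR-222 sites of these genes, and the aligned stretch of Ddx3x stands beside that of D1Pas1 with the same positions in capitals.
D1Pas1 3′UTR (site at chr1:186969913-186969919): tacagaaaacactacatgtaATGTAGCcag
Ddx3x 3′UTR (chrX:13291528-13291557): taatatggaaaccacatgtaACTTAGCcag
Ddx17 coding sequence, exon 11 (site at chr15:79535971-79535977): tcctatcctcattgccacggATGTAGCctc
Dhx36 3′UTR (site at chr3:62469946-62469952): gtcctgttctgtgtagcataATGTAGCaac
D1Pas1 and Ddx3x matched in 20 of these 30 bases. Counted from the 5′ end of the stretch, with the D1Pas1 base first, the substitutions in the site were T22C and G23T, so Ddx3x does not hold the 7 bases there. The Ddx3x stretch lay under a peak in all 5 libraries and the D1Pas1 stretch in none. The wide peak of control-IP 3 ended 96 bases before the D1Pas1 site.

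Sites for the other 2 miRNAs were found under peaks. ACATTCC, the miR-206 site, occurred 7 times in 5 of the mRNAs, and 5 of these sites lay under a peak. The share of such sites under a peak over all mRNAs was not computed, so these counts do not compare the miRNAs. In the Ddx5 and Ddx17 3′UTRs the site was under a peak in all 5 libraries. Their intervals were 1856 and 1217 bp wide, and 13.4% and 8.46% of exonic intervals within 20% of those widths held the site. The stretches of both are shown with a pair from exon 2 of Ddx21, where nearly the same stretch occurs at both places.
Ddx5 3′UTR (site at chr11:106781680-106781686): tttaagttggatatttctctACATTCCtga
Ddx17 3′UTR (site at chr15:79527877-79527883): gcccttgctggtctctccacACATTCCtgt
Ddx21 coding sequence (site at chr10:62598494-62598500): accttccgaagaagaggcagACATTCCtaa
Ddx21 coding sequence (site at chr10:62598383-62598389): accttccgaagaagaggtagACATTCCtaa
The miR-206 site was held by 4 of the 58 helicase intervals and by 3.44% of 37545 exonic intervals, counted where the exons lay on a single strand. CTACCTC, the let-7a site, occurred 3 times in the mRNAs, 2 of them under a peak, and was in 2 of the 58 intervals against 3.62% of all. Its stretch in the coding sequence of Dhx9, exon 18, lay under a peak in all 5 libraries.
Dhx9 coding sequence (site at chr1:153464686-153464692): gaagtcaccggtatcagattCTACCTCtcc
The miR-222 site was in 1 helicase interval, over exon 5 of Dhx9, outside the principal mRNA, and in 2.51% of all intervals. That interval had a peak in miR-222-IP 1 (24.4) and miR-222-IP 2 (37.6) and none in the 3 control-IPs. Other Dhx9 intervals without the site had the same libraries, as did 6.54% of all exonic intervals. A match of 7 bases is a description of the sequence and does not show binding.

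Ddx5 and Ddx17 encode paralogous helicases that act in transcription, splicing and miRNA processing, and in muscle they are known partners of MyoD. Ddx5 has 13 exons at chr11:106780355-106789185 and Ddx17 has 13 exons at chr15:79527736-79546741, both on the minus strand. Their coding sequences were 67.1% identical, with no shared window of 100 bases. Both genes had a peak in the last exon in all 5 libraries. For Ddx5 this interval (chr11:106780356-106782211) ran from the end of the coding sequence over nearly the whole 3′UTR. Its −log10 p was 49.9 and 60.9 in control-IP 1 and 2, 81.9 in miR-222-IP 1, 86.8 in control-IP 4 and 86.5 in miR-222-IP 2. The matching interval of Ddx17 (chr15:79527729-79528945) covered the last 1210 bases of the 3′UTR. It reached 35.8 and 93.3 in control-IP 1 and 2, 95.9 in miR-222-IP 1, 121 in control-IP 4 and 123 in miR-222-IP 2. Control-IP 1 was the lowest library at both genes, and the control-IP and miR-222-IP values overlapped. This Ddx17 interval also touched an exon of Kdelr3, so reads there cannot be assigned to a single gene without strand.

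Coding exons of both genes carried further peaks. At the Ddx5 start codon a peak was listed in 4 libraries, with −log10 p of 66.7, 52.4, 64.9 and 96.6, and control-IP 1 had none. Exon 12 of Ddx5 had a peak in all 5 libraries (31.4 to 53.7) in an interval that also touched the microRNA gene Mir3064. Exon 2 of Ddx5 had a peak in miR-222-IP 2 alone (23.5), and all 67 of its windows of 100 bases also occur at Gm12183. In Ddx17, exons 7 and 8 had a peak in all 5 libraries (27.5 to 77.0). Ddx17 exons 4, 6 and 9 each had a peak in both miR-222-IPs and in control-IP 4, with values of 22.4 to 47.8. A peak at the Ddx17 start codon was seen in control-IP 2 alone (29.4).

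Ddx6 encodes a helicase of P-bodies that links the miRNA machinery to translational repression and decapping of mRNA. It lies at chr9:44604892-44640731 on the plus strand with 14 exons, and 4250 of its 6065 mRNA bases are 3′UTR. Its strongest interval, over exon 2 and the start codon (chr9:44607063-44607689), had the highest −log10 p of the 8 genes in 3 of 5 libraries. Values were 53.4 and 112 in control-IP 1 and 2, 134 in miR-222-IP 1, 162 in control-IP 4 and 213 in miR-222-IP 2. Among protein-coding genes with an exonic peak in the same library, Ddx6 stood at percentiles 66.0, 86.1, 92.8, 96.6 and 98.6 in that order. None of the 371 windows of 100 bases in this interval had a copy elsewhere, whereas 55 of its 421 windows of 50 bases did.

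The Ddx6 3′UTR held 3 more intervals with a peak in every library. Their −log10 p ranged from 38.9 to 70.3 (chr9:44637610-44638542), from 31.5 to 91.2 (chr9:44638706-44639266) and from 26.9 to 86.5 (chr9:44639982-44640719), highest in miR-222-IP 2 each time. A further 3′UTR interval had peaks in 3 libraries, the highest at 39.6 in miR-222-IP 2. Coding exons 3, 4 and 6 to 10 had peaks in 1 to 4 libraries, and 3 of these 7 intervals were listed in miR-222-IP 2 alone (21.8 to 28.5). Exon 6 had a peak in both miR-222-IPs (39.8 and 49.1) and in no control-IP.

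Ddx21 encodes a nucleolar helicase of ribosomal RNA synthesis and processing. It lies at chr10:62580251-62602281 on the minus strand, and its 10 intervals had no member with a peak in all 5 libraries. The interval at the start codon had values of 25.2 and 60.8 in control-IP 1 and 2, 33.7 in miR-222-IP 1 and 35.2 in miR-222-IP 2, and no peak in control-IP 4. Control-IP 1 had no other Ddx21 peak. Exons 2, 4, 6 and 9 had peaks in the other 4 libraries, at 20.5 to 67.4. A pair of the remaining intervals was in the last exon, and the long 3′UTR interval there was seen in control-IP 4 (26.9) and miR-222-IP 2 (31.7) of the second experiment and in no library of the first.

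Dhx9 encodes RNA helicase A, a DEAH-box enzyme that unwinds RNA and DNA duplexes and binds inverted repeats in transcripts. It lies at chr1:153455758-153487660 on the minus strand, and its mRNA is mostly coding sequence, 4155 of 4616 bases. Peaks touched 3, 7 and 8 of its 28 exons in control-IP 1, 2 and 4, and 18 and 20 exons in miR-222-IP 1 and 2. Counted as peaks these were 2, 5 and 6 in the control-IPs and 14 and 16 in the miR-222-IPs, so the groups did not overlap. More exonic peaks in each miR-222-IP than in each control-IP were found in 14.3% of 10289 protein-coding genes with any exonic peak, and in no other of the 8 helicases. At the same time miR-222-IP 1 and 2 had the longest lists of all, 21074 and 37762 peaks, and the part of list length was not tested. The strongest interval, over exons 17 to 19 (chr1:153464266-153465159), had values of 29.8 and 22.3 in control-IP 1 and 2, 82.3 in miR-222-IP 1, 82.5 in control-IP 4 and 97.2 in miR-222-IP 2. Here the control-IP of the second experiment stood with the miR-222-IPs rather than with the control-IPs of the first.

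Dhx36 encodes a DEAH-box helicase that resolves G-quadruplexes in RNA and DNA. It lies at chr3:62468013-62507004 on the minus strand and had 5 peaks in 3 intervals. Control-IP 2 listed all 3 intervals, at 25.8 in exon 3, 26.2 in exons 18 and 19 and 24.8 in the 3′UTR. The exon 3 peak reached 190 in miR-222-IP 1, percentile 98.5 of the protein-coding genes in that library, and no peak was listed there in miR-222-IP 2 or in control-IP 1 and 4. This value therefore rests on 1 library. In the 3′UTR, miR-222-IP 2 had a peak of 26.0.

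Most of the 58 intervals lay in coding sequence. Of the 58, 38 covered coding sequence alone, 6 the start of it with 5′UTR, 4 its end with 3′UTR, 9 only 3′UTR and 1 only 5′UTR. Of the 38 coding intervals, 30 lay over a single exon and 28 of them contained that exon whole. Those 30 had a median width of 286.5 bp, with a median of 144 exonic bases and of 130 bases outside the annotated exons of the gene. The intervals thus reached past the exon on the genome. Whether intronic reads or the way peaks were called gave these flanks was not tested. By contrast, 8 of the 9 intervals in 3′UTR alone had no base outside the exon. A peak in all 5 libraries was seen in 4 of the 38 coding intervals and in 4 of the 9 3′UTR intervals. Those 3′UTR intervals lay in Ddx6 and Ddx17 only and were 561 to 1217 bp wide. The same shares by transcript part over all exonic intervals are not given here, so no trait of the helicases can be read from these counts.

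Which libraries shared an interval was set beside all exonic intervals. Of the 58, 11 had a peak in all 5 libraries (19.0%, against 19.8% of all exonic intervals), and 11 had a peak in miR-222-IP 2 alone (19.0% against 30.9%). Another 3 were listed in control-IP 2 alone (5.17% against 5.63%), in Ddx3x, Ddx17 and Dhx36. A peak in both miR-222-IPs and in none of the 3 control-IPs was found for 7 intervals (12.1% against 6.54%). Of these, 6 lay over coding exons of Dhx9 (exons 3, 4, 5, 12, 21 and 25 to 26) with values of 20.1 to 46.9, and the other was exon 6 of Ddx6. No helicase interval had a peak in all 3 control-IPs and in neither miR-222-IP.

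The comparison of miR-222-IP with control-IP used the 11 intervals with a peak in every library, 1 in Ddx3x, 2 each in Ddx5, Ddx17 and Dhx9, and 4 in Ddx6. Libraries were put on a common scale with a median-of-ratios factor, and the log2 ratio of the miR-222-IP to the mean of the control-IPs of its experiment was formed, with control-IP 4 alone in the second. It is a ratio of −log10 p and not a fold change in RNA. None of the 11 was above the control-IPs in both experiments (17.3% of 7698 exonic intervals were). Below in both was 1, the first of the 3 intervals in the Ddx6 3′UTR (18.3% of all). Its log2 ratio was −0.18 for miR-222-IP 1 and only −0.026 for miR-222-IP 2. Before scaling, this interval had 49.3 in miR-222-IP 1, against 38.9 and 48.9 in control-IP 1 and 2. It had 70.3 in miR-222-IP 2 against 47.5 in control-IP 4. Its place below the control-IPs therefore rests on the scaling.

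The 2 experiments went in opposite directions. In the first the median log2 ratio of the 11 was 0.35, and in the second it was −0.36, against −0.04 and 0.02 over all 7698 intervals. A ratio above 0 in the first experiment and below 0 in the second was found in 10 of the 11, and in 20.3% of all intervals. In the first experiment miR-222-IP 1 was above both control-IPs in 7 of the 11 (28.4% of all), and in the second miR-222-IP 2 was below control-IP 4 in 11 of 11 (48.9% of all). The 11 intervals belong to 5 genes and share their libraries, and the same miR-222-IP enters every ratio of an experiment, so they are not independent. The pooled median over both experiments was 0.03. Without scaling, 8 of the 11 were above in both experiments, where 50.4% of all intervals were above and the median of all intervals was shifted by 0.47.

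**Figure D4:**
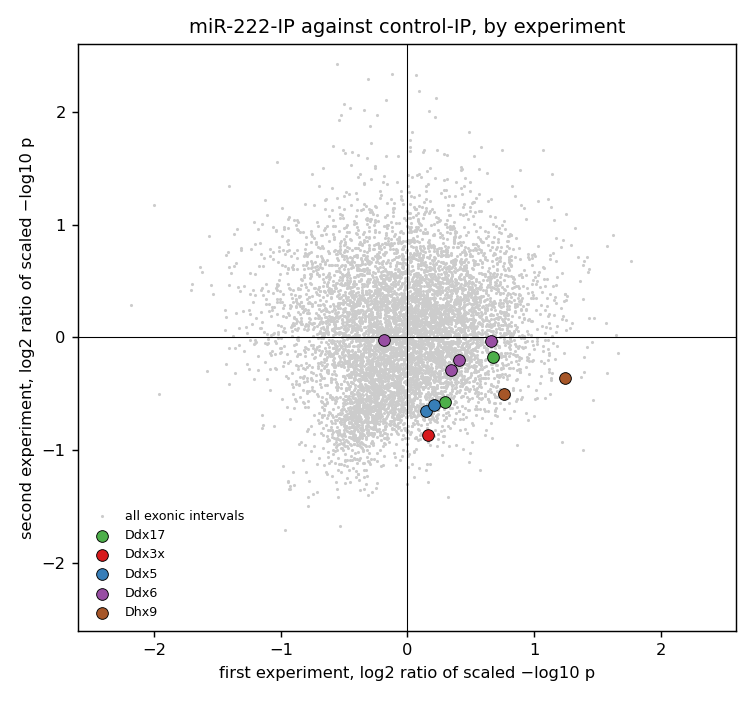
Log2 ratio of scaled −log10 p, miR-222-IP over the mean control-IP, of the first experiment (horizontal axis) and of the second (vertical axis), for 11 helicase intervals (large points, coloured by gene) over all 7698 intervals with a peak in every library (grey, 1 of them outside the axes). Of the helicase points, 10 lie right of 0 and below 0, and the other, of Ddx6, lies left of 0 and below 0.

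Mean log2 ratios of the strongest interval, averaged over both experiments, were −0.35 for Ddx3x, −0.19 for Ddx5, −0.14 for Ddx17, 0.10 for Ddx6 and 0.45 for Dhx9. For Dhx9 the ratio of the first experiment was 1.25 and that of the second −0.36, and for Ddx3x these were 0.16 and −0.86. Between the 2 control-IPs of the first experiment, log2 values of the 11 intervals differed with an SD of 0.69 (0.75 over all intervals). That SD is of single libraries, whereas the means above average 2 experiments, so their sizes are not directly comparable. The mean log2 ratio itself had an SD of 0.25 over the 11 intervals and 0.37 over all 7698. Among the strongest intervals, that of Dhx9 alone had a mean larger in size than 0.37. In an exact 2-sided permutation test of the labels within experiments (6 arrangements, smallest possible p of 0.167), the lowest p of the 11 intervals was 0.333, and the lowest p adjusted by Benjamini-Hochberg over all 7698 intervals was 0.979. With this design no single interval could pass the usual threshold. Ddx21, Dhx36 and D1Pas1 had no interval with a peak in every library and were not compared.

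The rest of the family gives a setting for these levels. Among 49 other Ddx, Dhx and Eif4a genes, 40 had an exonic peak in at least 1 of 5 libraries, 12 in all 5 and 9 in none. The highest means were those of Ddx1 (112), Eif4a1 (103), Ddx47 (98.0), Dhx15 (64.0) and Ddx50 (62.9), and Ddx6 was above all of them. Eif4a1, the helicase of translation initiation, varied least of the family genes with a peak in all 5, with 94.7 to 109 in the 5 libraries, in a single interval. Its relative Eif4a2 had peaks in 3 libraries (52.5 to 95.6), whereas Eif4a3 of the exon junction complex and Ddx39b, which acts in mRNA export, had peaks in all 5 (36.9 to 64.3 and 32.9 to 69.1). Of the 17 intervals of these other genes with a peak in every library, 6 were above the control-IPs in both experiments and none below. Their median mean log2 ratio was 0.24. Over all 7698 exonic intervals 17.3% were above and 18.3% below, with a median of −0.0004. No difference between the 17 and the 11 intervals was tested.

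**Figure D5:**
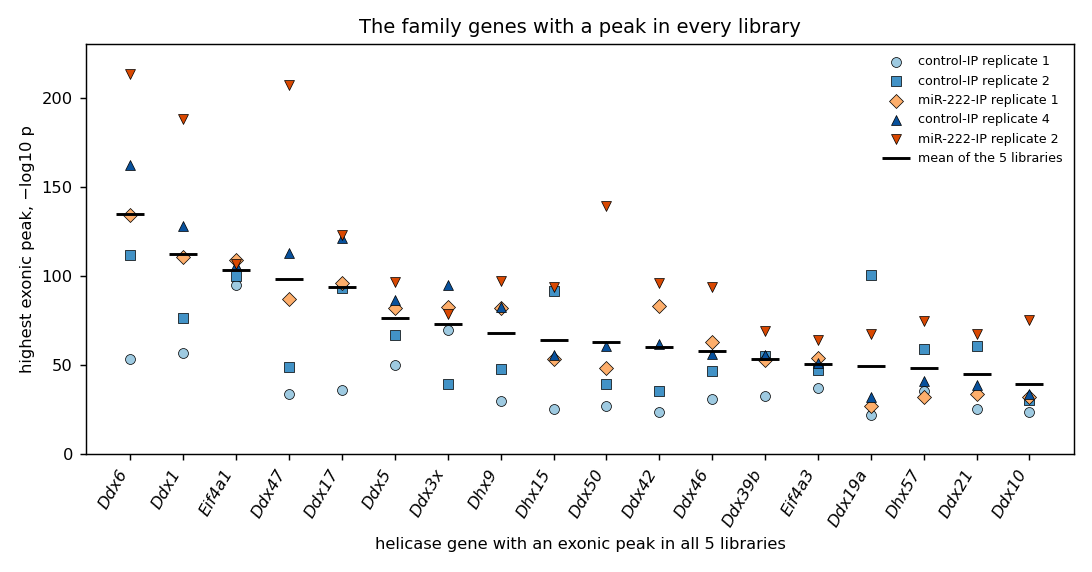
Highest exonic −log10 p (vertical axis) of the 18 family genes with a peak in all 5 libraries (horizontal axis, in order of the mean), with a point for each library and a bar for the mean. The 6 genes described here are spread over the order, with Ddx6 first and Ddx21 next to last, and control-IP 1 is the lowest library for most genes.

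Among 5282 genes with an exonic peak in all 5 libraries, the pattern nearest to Ddx3x was that of Mgme1, with a mean absolute difference of 0.12 in log2 scaled highest −log10 p over the 5 libraries. Its values were 75.4 and 36.9 in control-IP 1 and 2, 93.9 in miR-222-IP 1, 102 in control-IP 4 and 84.1 in miR-222-IP 2. Gm28037 and Gm49342 came next, both at 0.14.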

How the data were processed

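The authors aligned 100-base paired reads of Ago2-bound RNA to mm10 with SOAPSplice, called peaks in every library on its own with macs2 defaults, and kept peaks whose −log10 p was above 20. These −log10 p values are what the deposited lists hold. The macs2 version, its control track, the strand of reads and the treatment of reads with several placements are not given in the sources used here. Groups and experiments came from the labels. Replicate numbers follow accession order and pair nothing, and the pairing used is the labelled experiment.

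Peaks were merged where they overlapped by 1 bp or touched (Python 3.11.15, numpy 2.4.6, pandas 2.3.3). An interval took the highest −log10 p of each library. Transcript parts used the APPRIS principal transcript of GENCODE M21. Coding sequences were aligned with MAFFT 7.526. Calculations were tested on simulated data. The members and gene lists were chosen with earlier results of these data known. Named genes are the 8 helicases, Ddx3y, Eif4a1, Eif4a2, Eif4a3, Ddx39b, the 5 other family genes with the highest mean peak, and the 3 genes nearest to Ddx3x. Sites for miR-133a and miR-1a were not searched. Alternatives covered the threshold, the exon overlap and annotation, merging, scaling, missing peaks, the wide list, the block by experiment and each library left out. Supplementary tables and the validation experiments were not used here.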

Additional observations from a re-analysis of the deposited data

Results flagged for a closer look

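A peak of miR-222-IP replicate 2 lay within an intron of Ddx6 (chr9:44621362-44621693, −log10 p 43.8, 332 bp), outside the exons that the counts above use. It was flagged because it is a signal in data outside the main measurement and no control-IP had a peak there. The list of miR-222-IP replicate 2 was the longest, and no other library listed this region, so the value rests on 1 library. A weaker intronic peak of Ddx21 was found in control-IP replicate 1 (24.1).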

How the results depend on the processing

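No read depth was used, a missing peak has no value, and 1 miR-222-IP per experiment limits every comparison. Of 78 recomputed log2 ratios, 22 changed sign, 18 of them ratios of a gene's strongest interval and 4 the median of the helicase intervals. The cause of these changes was not tested. At a −log10 p of at least 50, 1 gene kept a peak in every library and 21 intervals remained. Only 1 interval could be compared there, and it was above in both experiments, as were 20.2% of all (20.7% were below). With the wide peaks of control-IP replicate 3 there were 25 merged intervals. Of the 4 that could be compared, 0 were above and 0 below, against 7.37% and 13.5% of all. In that setting 4 genes had a peak in every list, D1Pas1 had a peak in 1 library, and the mean log2 ratio became 0.22 for Ddx5 and −0.095 for Dhx9. Without scaling, 8 intervals were above and 0 below, the median was 0.54, and Ddx3x, Ddx5 and Ddx17 became 0.16, 0.28 and 0.30, while the median of all intervals was 0.47. Scaling to summed −log10 p gave −0.30 for Ddx6 and −0.023 for Dhx9, with a median of −0.45 for the helicase intervals and −0.43 over all intervals. With missing peaks set to 20, 3 of 58 intervals were above and 21 below, against 10.2% and 37.9% of all, and their median was −0.092. Leaving out each library in turn gave 6 genes each time, D1Pas1 at 0 each time, 47 to 59 intervals, 0 to 7 above and 2 to 11 below, and a median of −0.33 to 0.33. Without miR-222-IP replicate 1, where the second experiment alone remains, 11 of 12 intervals were below (49.2% of all), and without miR-222-IP replicate 2 or control-IP replicate 4, where the first alone remains, 7 of 12 were above (28.9% and 28.5% of all). Without control-IP replicate 1, 18 intervals could be compared, 1 above and 3 below (24.8% and 24.7% of all), and without control-IP replicate 2, 3 of 11 were below (29.9% of all). The ranges of the strongest intervals all included 0, from −0.87 to 0.17 for Ddx3x, −0.61 to 0.22 for Ddx5, −0.58 to 0.31 for Ddx17, −0.21 to 0.41 for Ddx6 and −0.37 to 1.26 for Dhx9. Without the block by experiment the counts stayed at 0 above and 1 below, against 10.7% and 13.2% of all. Here both miR-222-IPs had to lie beyond every control-IP, a stricter rule, so the unchanged counts say little about the block.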
